A study of Mus musculus with 9 samples.

Results

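The genes described here are 6 ephrin receptors (Epha1, Epha2, Ephb2, Ephb3, Ephb4 and Ephb6), 3 ephrins (Efna1, Efnb1 and Efnb2) and the collagen receptor Ddr1. They were taken by gene symbol from a table of 16755 genes, in which all 10 were found, and they were chosen from the same group means that are described here, with those means already known. The means are therefore a description and are not tested. The study also listed Ephb2 and Ddr1 among genes of pathways of interest on the basis of these mice, so their values are not independent evidence.

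Groups of C57BL/6 mice (C57BL/6J in the methods), male by the methods, all carrying floxed alleles of Scd2 (Scd2f/f), were compared by sequencing of polyadenylated liver RNA, with 3 mice in each. Scd2f/f and Scd2f/f;CC mice (genotype Scd2f/f;Col1a1-Cre) received the carcinogen diethylnitrosamine (DEN) when 2 weeks old, at 10 mg/kg, and Western alcohol diet (WAD) (ethanol with a diet rich in lard and cholesterol) starting at 6 weeks, for 4 months by the labels and longer by the methods. Their tissue is called tumor-adjacent liver (TAL) here, as Scd2f/f TAL and, for Scd2f/f;CC mice, CC TAL. The labels say liver, and the methods write NTL in one place. The paper reports microscopic but no visible tumors in this tissue, and markedly reduced liver tumors in Scd2f/f;CC mice. The tumor content of the samples was not measured here. The controls were labelled as untreated Scd2f/f mice. The treatment text of their labels repeats the DEN and WAD regimen, and their age is given only as a broad range for all mice of the study. The CC transgene drives Cre from the Col1a1 promoter, which is active in activated hepatic stellate cells (HSC) and portal fibroblasts, while the RNA came from whole tissue. In such bulk RNA, fewer cells of a type and less RNA per cell cannot be told apart.

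Eph receptors are receptor tyrosine kinases whose ligands, the ephrins, are themselves bound to the membrane of a neighbouring cell. EphA receptors mostly bind the lipid-anchored ephrin-A proteins and EphB receptors the transmembrane ephrin-B proteins, and signals run into both the cell with the receptor and the cell with the ligand. This contact signalling sorts cells and sets tissue boundaries. In vessels, Ephb4 is known from veins and Efnb2 from arteries, and in intestinal crypts Ephb2 and Ephb3 are known targets of WNT and CTNNB1 signalling. Ddr1 is a receptor tyrosine kinase of another family that binds collagen and is known mainly from epithelia, while its relative Ddr2 is known from mesenchymal cells.

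The deposited values are the authors' least-squares means of upper-quartile normalised counts, 1 value for each gene and group. The data of single mice were not analysed, and therefore differences carry no error and no test, and a ratio is called past 2-fold by its size alone. The lowest mean of any gene was 0.0348 in Scd2f/f TAL, 0.0349 in CC TAL and 0.04 in untreated liver, and none of the 10 genes was at it. A mean of 1 is not 1 read, and the depth of each library is unknown. The mean of the targeted gene, Scd2, was 6.47 in Scd2f/f TAL, 1.87 in CC TAL and 2.46 in untreated liver.

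Between CC TAL and Scd2f/f TAL, 2 of the 10 genes were past 2-fold, Ephb2 and Ddr1, both lower in CC TAL. Among all genes, 4.07% were past 2-fold lower in that comparison and 1.82% past 2-fold higher. The other 8 genes lay within 1.5-fold. Between Scd2f/f TAL and untreated liver, 2 of the 10 were past 2-fold, Ephb2 and Ephb6, both higher in Scd2f/f TAL, where the share among all genes was 9.37% higher and 4.69% lower. These shares fall with the level of a gene, and 3 of the 10 genes (Ephb2, Ephb3 and Ephb6) had a mean under 1 over the 3 groups. Both comparisons rest on the same Scd2f/f TAL mean, which is the numerator in one and the denominator in the other.

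**Figure D1:**
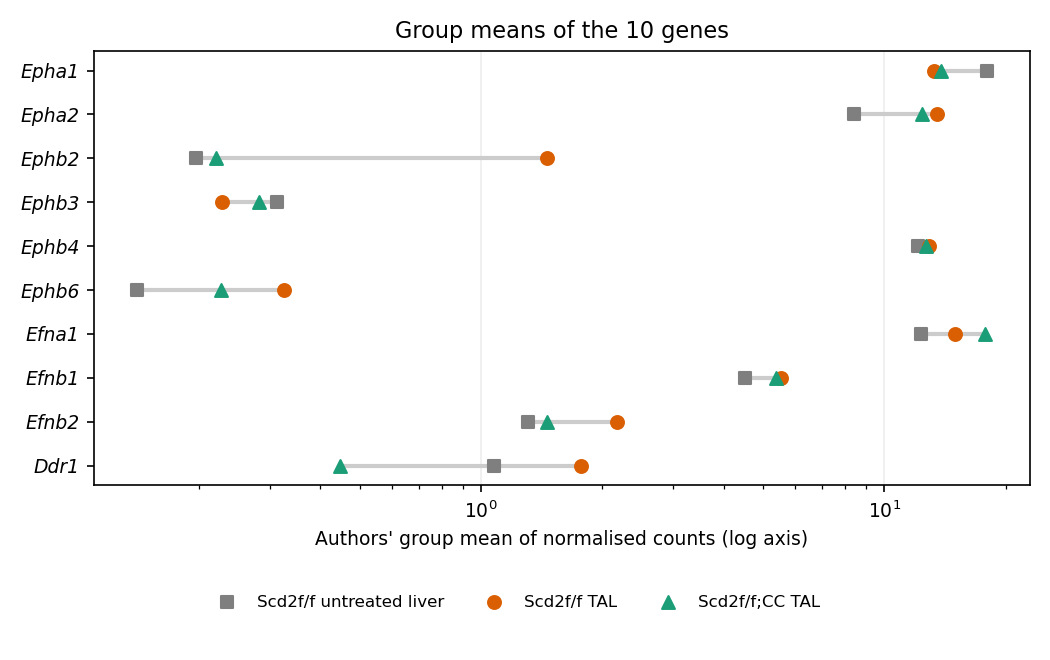
Authors' mean of normalised counts on a log axis for each of the 10 genes, with squares for untreated liver, circles for Scd2f/f TAL and triangles for CC TAL (labelled Scd2f/f;CC TAL); grey lines join the lowest and highest mean, and there are no error bars because single mice were not analysed. Ephb2 spans 0.196 to 1.46 and Ddr1 0.448 to 1.77, while the 3 symbols of Ephb4 lie between 12.1 and 12.9.

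The promoter sequences of the genes that passed 2-fold are shown because the study concerns CTNNB1, which acts through TCF/LEF factors, and YAP1, which acts through TEAD factors. Each is the 250 bases before a RefSeq transcript start in GRCm38.p6, 5′ to 3′ on the strand of the gene. Capitals mark every match, on either strand, to 4 short strings. The string searched for the TCF/LEF core was CTTTGA. For the TEAD core the letters were GGAATG. A GC box was read as GGGCGG, while the TATA box was spelled TATAAA. No matches overlapped in these windows. Ephb2 has 1 such window, chr4:136836013-136836262 on the minus strand. Of the 4 windows of Ddr1, the most upstream, chr17:35704600-35704849, and the most downstream, chr17:35700591-35700840, are shown, both on the minus strand. The window of Ephb6 is chr6:41605261-41605510 on the plus strand, and that of Epha2, shown because it too holds a TCF/LEF core, is chr4:141300971-141301220 on the plus strand.
Ephb2: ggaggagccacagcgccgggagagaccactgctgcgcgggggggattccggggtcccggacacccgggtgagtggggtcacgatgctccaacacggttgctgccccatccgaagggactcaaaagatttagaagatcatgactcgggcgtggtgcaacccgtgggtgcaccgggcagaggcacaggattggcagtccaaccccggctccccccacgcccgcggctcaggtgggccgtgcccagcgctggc
Ddr1 upstream: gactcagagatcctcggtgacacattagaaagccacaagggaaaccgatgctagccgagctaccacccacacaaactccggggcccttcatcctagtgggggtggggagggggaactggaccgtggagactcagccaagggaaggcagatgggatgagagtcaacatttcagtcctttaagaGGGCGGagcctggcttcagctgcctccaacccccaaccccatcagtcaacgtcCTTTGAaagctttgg
Ddr1 downstream: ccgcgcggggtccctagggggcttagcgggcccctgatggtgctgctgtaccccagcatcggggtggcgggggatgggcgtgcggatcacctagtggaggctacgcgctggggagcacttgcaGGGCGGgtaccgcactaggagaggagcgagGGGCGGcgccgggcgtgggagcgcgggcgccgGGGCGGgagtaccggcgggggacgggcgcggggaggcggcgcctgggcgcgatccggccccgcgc
Ephb6: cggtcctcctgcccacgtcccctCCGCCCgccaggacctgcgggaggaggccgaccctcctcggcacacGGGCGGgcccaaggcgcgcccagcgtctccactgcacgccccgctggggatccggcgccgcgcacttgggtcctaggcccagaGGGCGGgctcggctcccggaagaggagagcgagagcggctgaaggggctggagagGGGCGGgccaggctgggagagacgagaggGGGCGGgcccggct
Epha2: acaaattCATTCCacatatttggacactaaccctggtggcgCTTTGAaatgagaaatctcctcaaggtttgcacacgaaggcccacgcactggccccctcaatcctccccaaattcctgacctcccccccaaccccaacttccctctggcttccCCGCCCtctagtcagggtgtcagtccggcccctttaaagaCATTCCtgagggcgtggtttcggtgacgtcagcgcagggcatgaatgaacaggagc

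The window of Ephb2 held none of the 4 strings, although 68.4% of its bases were G or C. In Ddr1, the upstream window held a TCF/LEF core whose first base is at -15 from the start and a GC box at -68. The last 22 bases of that window lie in a GENCODE M21 exon of Ddr1, so this TCF/LEF core is inside that exon. The downstream Ddr1 window had 78% G and C, 34 CpG and 3 GC boxes. Ephb6 had 5 GC boxes, of which the 1 at -14 lies in the last 29 bases, which are in an exon of Ephb6. Epha2 had a TCF/LEF core at -209 and TEAD cores at -243 and -56. Across all 14 windows of the 10 genes, 2 held a TCF/LEF core, 3 a TEAD core, 11 a GC box and 1 a TATA box. Among 32851 such windows of all genes, the shares were 13.8% for the TCF/LEF core, 12.6% for the TEAD core, 32.7% for the GC box and 12.4% for the TATA box. The median window of all genes had 52.4% G and C, and each of the 14 windows was above it. A match is a run of letters and not a measured binding site, and no match says only that these letters are not in the window.

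The receptors of the EphB class included both the gene with the largest difference and the gene with the smallest. Ephb2, which binds ephrin-B proteins, lies on chromosome 4 from 136647539 to 136835988 on the minus strand (mm10/GRCm38) and has 6 transcripts in GENCODE M21. Its mean was 0.196 in untreated liver, 1.46 in Scd2f/f TAL and 0.22 in CC TAL. Scd2f/f TAL stood alone, and the other groups lay close together. The ratio of Scd2f/f TAL to untreated liver was 7.45, the 73rd highest of the 16755 genes, and that of CC TAL to Scd2f/f TAL was 0.151, the 22nd lowest. On the log2 scale these were 2.90 and -2.73, and CC TAL exceeded untreated liver by 0.17. Of all genes, 2.08% were past 2-fold in both of these directions. Ephb2 was a low gene, with 23.5% of genes having a lower mean. Among genes with a mean under 1, 16.4% were past 2-fold higher in Scd2f/f TAL than in untreated liver and 10.1% past 2-fold lower in CC TAL than in Scd2f/f TAL. With a pseudocount of 1, the log2 ratios of Ephb2 were 1.04 and -1.01.

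Ephb6, an Eph receptor that lacks kinase activity, lies on chromosome 6 from 41605482 to 41620509 on the plus strand. It was lower still, at 0.14 in untreated liver, 0.324 in Scd2f/f TAL and 0.227 in CC TAL. The CC TAL value lay between the others, with a log2 ratio of 1.21 for Scd2f/f TAL against untreated liver and of -0.51 for CC TAL against Scd2f/f TAL. In untreated liver Ephb6 was 3.5 times the lowest mean of any gene. With a pseudocount of 1, its first log2 ratio was 0.22. Ephb3, which acts with Ephb2 in intestinal crypts, lies on chromosome 16 from 21204755 to 21223305 on the plus strand and had the reverse order, with 0.312 in untreated liver, 0.228 in Scd2f/f TAL and 0.282 in CC TAL. No group differed from another by 1.5-fold for Ephb3.

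Ephb4, the venous receptor of ephrin-B2, lies on chromosome 5 from 137350109 to 137378669 on the plus strand. Its means were 12.1 in untreated liver, 12.9 in Scd2f/f TAL and 12.7 in CC TAL. The log2 ratios of Ephb4 were 0.09 and -0.02, the smallest among the 10 genes in each comparison. Its 3′ end overlaps that of Zan on the other strand, and the library kit does not keep strand, so reads there cannot be told apart.

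The EphA receptors were among the higher genes. Epha2, a receptor of ephrin-A1 known from epithelia, lies on chromosome 4 from 141301240 to 141329384 on the plus strand, apart from Ephb2 on the same chromosome. Its means were 8.39 in untreated liver, 13.5 in Scd2f/f TAL and 12.4 in CC TAL. Both TAL groups were thus above untreated liver, by 0.69 and 0.56 on the log2 scale, and they differed from each other by -0.12. For Epha1, the other EphA receptor, which lies on chromosome 6 from 42358487 to 42373268 on the minus strand, the order was the opposite, with 18.0 in untreated liver, 13.3 in Scd2f/f TAL and 13.8 in CC TAL. Its log2 ratios were -0.44 for Scd2f/f TAL against untreated liver and 0.05 between the TAL groups. Epha1 overlaps Zyx and an antisense RNA on the other strand. Per kb of exon, the ratio of Epha1 to Epha2 was 2.55 in untreated liver, 1.17 in Scd2f/f TAL and 1.32 in CC TAL.

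None of the 3 ephrins passed 2-fold in any comparison. Efna1, the lipid-anchored ligand of Epha2, lies on chromosome 3 from 89271733 to 89281142 on the minus strand. Efna1 had means of 12.3 in untreated liver, 15.0 in Scd2f/f TAL and 17.8 in CC TAL. It was the 1 gene of the 10 whose CC TAL mean lay above both others, with a log2 ratio of 0.25 to Scd2f/f TAL and of 0.53 to untreated liver. Efnb1, a transmembrane ephrin on chromosome X from 99136130 to 99148991 on the plus strand, had 4.51, 5.53 and 5.4 in the same order of groups, so that both TAL groups were above untreated liver and close to each other. Efnb2, the arterial ligand of Ephb4, lies on chromosome 8 from 8617434 to 8661242 on the minus strand and had 1.31, 2.17 and 1.46. Its Scd2f/f TAL mean stood above the others, as for Ephb2, but by less, with log2 ratios of 0.73 and -0.57. Of the 10 genes, 7 had their highest mean in Scd2f/f TAL, against 34.2% of all genes.

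Ddr1 lies on chromosome 17 from 35681567 to 35704621 on the minus strand and has 12 transcripts, the most among the 10 genes. Its mean was 1.08 in untreated liver, 1.77 in Scd2f/f TAL and 0.448 in CC TAL. The CC TAL value was the lowest of the 3, unlike that of Ephb2, which lay near untreated liver. The ratio of CC TAL to Scd2f/f TAL was 0.253, the 113th lowest of all genes, and that to untreated liver was 0.415. On the log2 scale these were -1.98 and -1.27, while Scd2f/f TAL was 0.71 above untreated liver. Ddr1 was the 1 gene of the 10 past 2-fold between CC TAL and untreated liver, where 4.64% of all genes were past 2-fold lower and 6.41% past 2-fold higher. In all, 1.13% of genes were past 2-fold lower in CC TAL than in both other groups. When a pseudocount of 1 was added, Ddr1 differed on the log2 scale by -0.94 between the TAL groups and -0.52 against untreated liver. An antisense gene, Gm4577, overlaps the 5′ end of Ddr1.

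**Figure D2:**
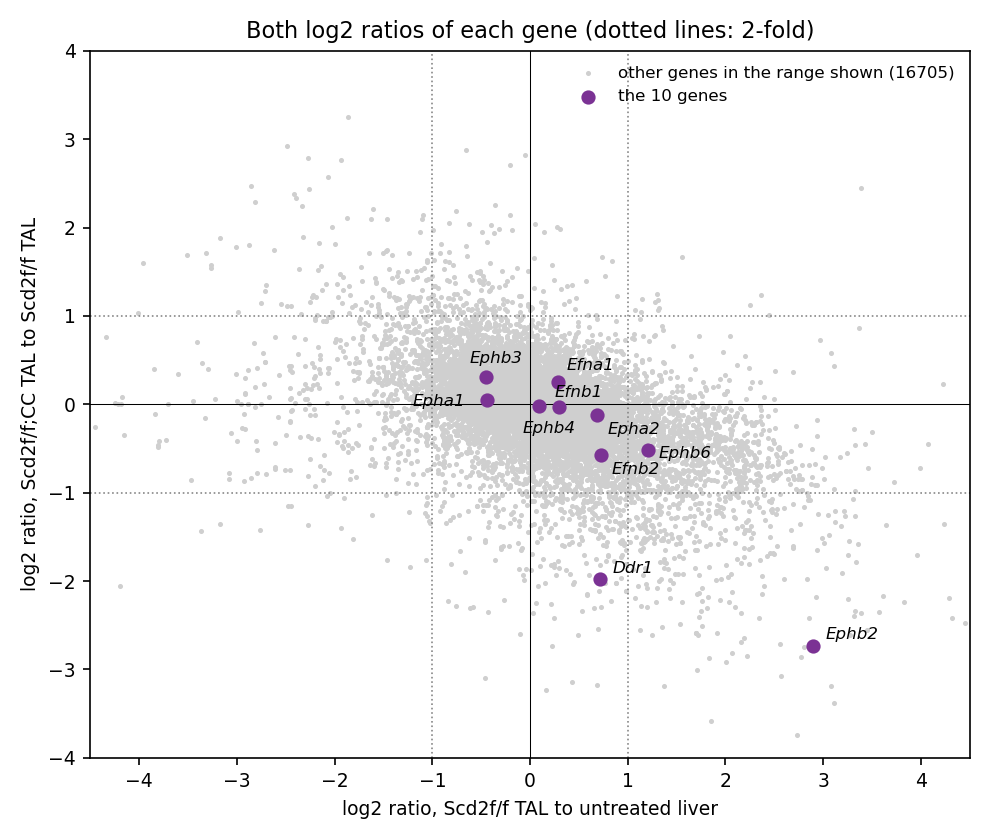
Each point is a gene, placed by its log2 ratio of Scd2f/f TAL to untreated liver and its log2 ratio of CC TAL to Scd2f/f TAL; purple points are the 10 genes, grey points are 16705 other genes in the range shown, and dotted lines mark 2-fold. Ephb2 (2.90, -2.73) and Ddr1 (0.71, -1.98) lie below the lower dotted line, and the downward tilt of the cloud includes the Scd2f/f TAL mean that both axes share with opposite sign.

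Levels of different genes were compared per kb of exon, because the authors' means are not divided by length. On this scale Efna1 was the highest of the 10 genes in each group, at 6.72 in untreated liver, 8.20 in Scd2f/f TAL and 9.73 in CC TAL, and Epha1 came next. Epha2 and Ephb4 followed, in an order that differed between groups, at 2.89 and 2.78 in Scd2f/f TAL and at 1.80 and 2.61 in untreated liver. Efnb1 was next in each group. Epha1, Epha2 and Ephb4 together made up 98.9% of the summed level of the 6 receptors in untreated liver, 97.5% in Scd2f/f TAL and 98.7% in CC TAL. Efna1 made up 81.8%, 81.0% and 84.6% of the summed level of the 3 ephrins in the same order. Ephb2 was the lowest of the 10 in untreated liver and CC TAL, at 0.0155 and 0.0174 per kb. It stood above Ephb6 and Ephb3 in Scd2f/f TAL, at 0.116. Its place depends on its exon length, 12.608 kb over all its annotated exons, against 3.773 for Ephb6 and 6.641 for Ephb3. Undivided, Ephb6 was below Ephb2 in untreated liver, at 0.14 against 0.196, and near it in CC TAL, at 0.227 against 0.22. Without values of single mice, it cannot be said which neighbours in these orders differ beyond their spread.

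**Figure D3:**
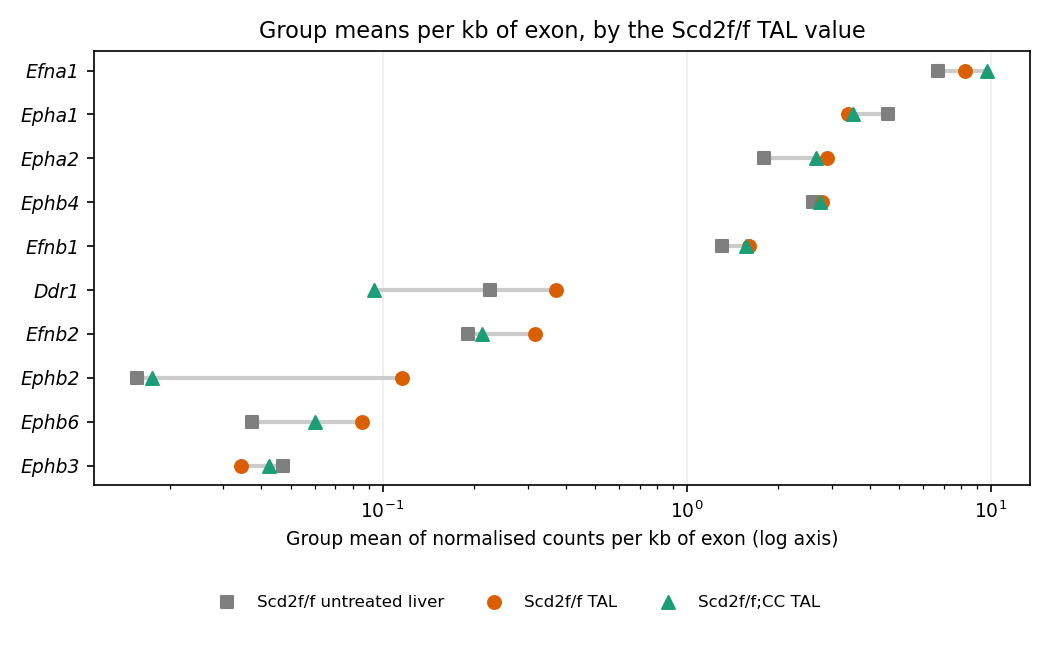
Authors' mean of normalised counts divided by kb of exon in GENCODE M21, on a log axis, for the 10 genes ordered by Scd2f/f TAL; symbols are as in the plot of group means, without error bars. Efna1 is highest in every group, and Ephb2 is lowest in untreated liver (0.0155) and above Ephb6 and Ephb3 in Scd2f/f TAL (0.116).

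None of the other genes of these families that were analysed was past 2-fold between the TAL groups. Of 8 further Eph receptors, 3 were analysed here. Epha3, known from mesenchymal cells, had means of 0.993 in untreated liver, 2.13 in Scd2f/f TAL and 1.08 in CC TAL, with log2 ratios of 1.10 and -0.98, the same order of groups as Ephb2, and between the TAL groups its difference exceeded those of the 10 genes other than Ephb2 and Ddr1. Epha7 had 1.98, 2.77 and 2.13, and Epha4, which binds ephrins of both classes, had 0.409, 0.25 and 0.249. Of 5 further ephrins, Efna5 was analysed, with 3.18, 3.83 and 4.26, so that CC TAL was highest, as for Efna1. Ddr2 had 5.42, 6.66 and 4.68 and a log2 ratio of -0.51 between the TAL groups. Per kb of exon, the ratio of Ddr1 to Ddr2 was 0.387 in untreated liver, 0.516 in Scd2f/f TAL and 0.186 in CC TAL. Epha5, Epha6, Epha8, Epha10, Ephb1, Efna2, Efna3, Efna4 and Efnb3 were sought but were not among the 16755 genes.

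The proteins that carry Eph and ephrin signals, 42 genes for adaptors, kinases, GTPases, exchange factors and proteases, had a median log2 ratio of 0.13 between Scd2f/f TAL and untreated liver and of -0.07 between CC TAL and Scd2f/f TAL, where the medians of all genes were 0.04 and 0. In the first comparison 3 of the 42 were past 2-fold, all higher, and in the second 0 were. Among all genes, 9.37% were past 2-fold higher in the first. Pak1, a kinase downstream of RAC1 and CDC42, had the largest log2 ratio of Scd2f/f TAL to untreated liver, 1.43, and Anks1, an adaptor of Eph receptors, the smallest, -0.62. Between the TAL groups the range ran from Ptpn13, a phosphatase, at -0.97 to Ngef, an exchange factor for RHOA, at 0.43. The protease Adam10, which cleaves ephrins and Ddr1, differed by -0.15. Of 39 other receptor tyrosine kinases, 31 were among the 16755 genes. Their median log2 ratio between the TAL groups was -0.08, with 3 past 2-fold lower and 0 past 2-fold higher. The shares of all genes were 4.07% lower and 1.82% higher. The 10 genes had a median of -0.08 in that comparison too, and of 0.49 between Scd2f/f TAL and untreated liver, against 0.16 for the other kinases. Without Ephb2 and Ddr1 the medians of the remaining 8 genes were -0.03 and 0.29. Among the other kinases, Ntrk2, a neurotrophin receptor, had the largest difference, with 0.436 in untreated liver, 18.6 in Scd2f/f TAL and 7.47 in CC TAL. Of those with a mean of 1 or more, Fgfr1 had the lowest log2 ratio of Scd2f/f TAL to untreated liver, -0.87, and Erbb4 the highest between the TAL groups, 0.83.

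The collagens that Ddr1 binds were lower in CC TAL for 8 of 8 genes, 3 of them past 2-fold, with a median log2 ratio of -0.90. All 8 were higher in Scd2f/f TAL than in untreated liver, 5 of them past 2-fold, with a median of 1.15. Among all genes, 4.07% were past 2-fold lower in CC TAL than in Scd2f/f TAL. The share past 2-fold higher in Scd2f/f TAL than in untreated liver was 9.37%. Col1a1, the major fibrillar collagen chain, had 4.69 in untreated liver, 19.6 in Scd2f/f TAL and 4.51 in CC TAL, and its log2 ratios of 2.06 and -2.12 were the extremes of the list. Col4a2, a chain of basement membrane collagen, had the smallest differences among those with a mean of 1 or more, 0.53 and -0.47. Of the 8 collagens, 3 are also on the list of HSC markers used here, and without them 0 of 5 were past 2-fold lower in CC TAL, with a median of -0.76. Of 10 genes for partners of Ddr1, 0 were past 2-fold between the TAL groups, and their median log2 ratio was -0.17. Among them, Myh10, a non-muscle myosin, had -0.67, Shc1, an adaptor, 0.06, and Cdh1, which encodes E-cadherin, -0.22. Nck2, an adaptor, was past 2-fold higher in Scd2f/f TAL than in untreated liver, at 1.18.

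Markers of several cell types differed between the same groups as Ephb2 and Ddr1. Of 9 markers of cholangiocytes and progenitors analysed, 7 were lower in CC TAL than in Scd2f/f TAL and 6 of these past 2-fold. The median log2 ratio of the 9 was -1.61. Among all genes, 4.07% were past 2-fold lower in that comparison. Of the 6, Cftr, Cldn7, Krt7 and Krt19 had a mean under 1 over the 3 groups, where that share was 10.1%. The summed level of the 9 was 65.4 in untreated liver, 61.5 in Scd2f/f TAL and 27.1 in CC TAL. Of this, Spp1, a secreted phosphoprotein, made up 52.3, 45.1 and 14.8. Without Spp1 the sums were 13.1, 16.4 and 12.3. Epcam, an epithelial adhesion molecule, had 1.97, 1.82 and 0.5 in that order, so that, as for Ddr1, CC TAL was the lowest of the 3. Of 11 markers of HSC and portal fibroblasts, 11 were lower in CC TAL and 7 past 2-fold, Timp1 and Acta2 of these with a mean under 1. The summed level of the 11 was 138 in untreated liver, 234 in Scd2f/f TAL and 133 in CC TAL. Col1a1, Timp1, Pdgfrb, Lum, Reln and Fbln2 had the order of groups of this sum. In contrast, Col1a2, Col3a1 and Lrat were higher in CC TAL than in untreated liver, and Acta2 and Des were highest in untreated liver. Lrat, which the paper uses as an HSC marker, had a log2 ratio of -0.25 between the TAL groups. The part of these cell types in the values of Ephb2 and Ddr1 was not tested.

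Macrophage markers were past 2-fold higher in Scd2f/f TAL than in untreated liver for 7 of 7 genes, against 9.37% of all genes. Their summed level was 68.8 in untreated liver, 246 in Scd2f/f TAL and 209 in CC TAL. T and B cell markers were past 2-fold higher in Scd2f/f TAL for 5 of 6 genes, with sums of 1.04, 3.18 and 2.37. Each of these 6 had a mean under 1 over the 3 groups, a level at which 16.4% of genes were past 2-fold higher. In both the macrophage and the T and B cell sums, Scd2f/f TAL was highest and untreated liver lowest, an order shared by Ephb2. In CC TAL and untreated liver, Ephb2 had 0.22 and 0.196, and the macrophage sum was 209 and 68.8. Epha2, Ephb4, Ephb6, Efnb1 and Efnb2 had that order too. The part of macrophages and of T and B cells in the values of these genes was not tested. Between the TAL groups 0 of the 7 macrophage markers and 1 of the 6 T and B cell markers were past 2-fold lower, the latter being Cd3e, a chain of the T cell receptor complex, at -1.20. Endothelial markers, which bear on Ephb4 and Efnb2, had sums of 117, 155 and 156, and 0 of 8 were past 2-fold between the TAL groups. Hepatocyte markers, led by Alb with means from 20900 to 22700, had 0 of 7 past 2-fold between the TAL groups. No marker gene analysed was listed at 0 in any group, but neither was any other gene, so this says nothing about detection.

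**Figure D4:**
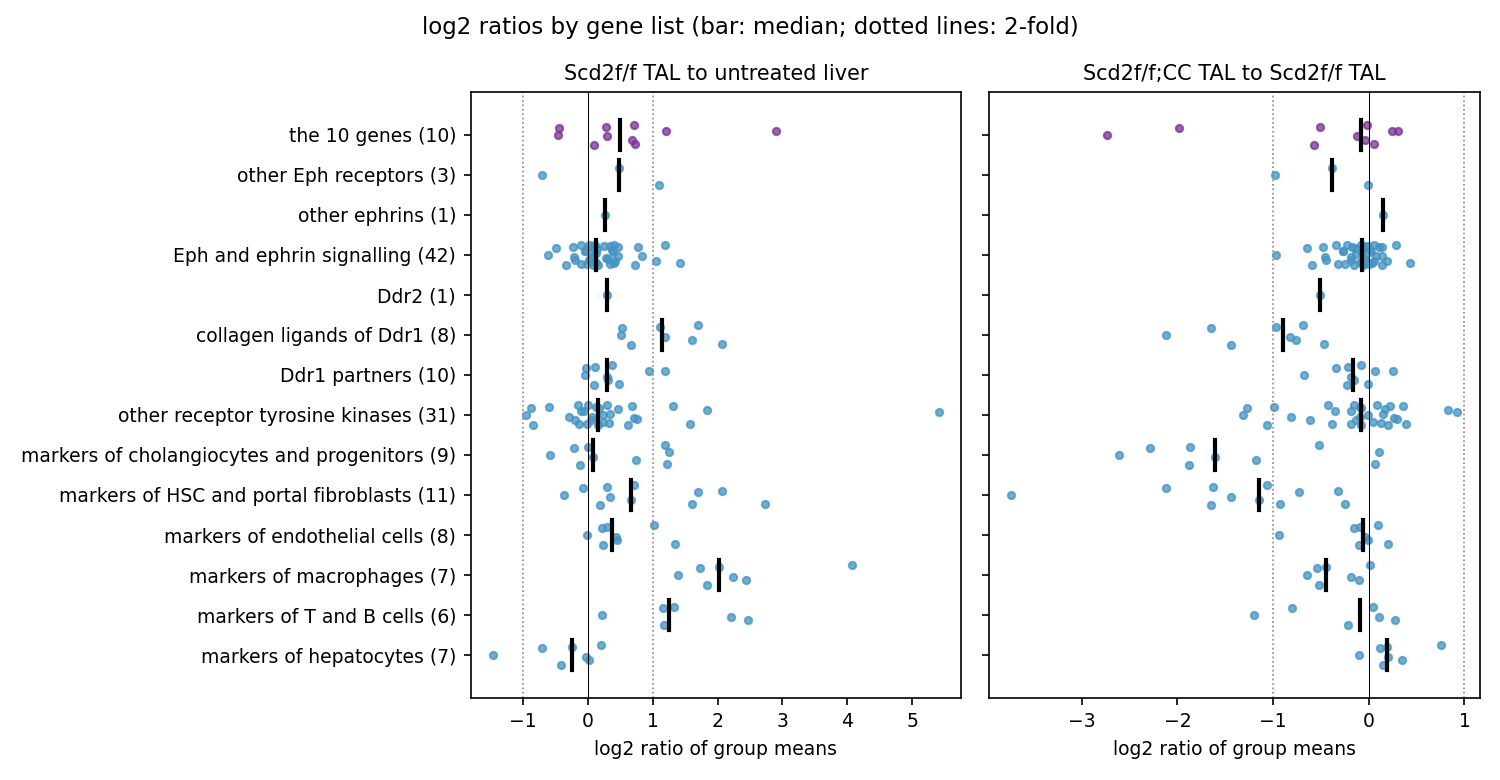
Each point is a gene of the list named at the left, with the number analysed in brackets, placed by its log2 ratio of Scd2f/f TAL to untreated liver (left) or of CC TAL to Scd2f/f TAL (right); black bars are medians and dotted lines mark 2-fold. In the right panel the 10 genes have a median of -0.08 with Ephb2 and Ddr1 far to the left, and the medians of collagens (-0.90), cholangiocyte markers (-1.61) and HSC markers (-1.15) lie to the left of 0.

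The genes whose pattern over the 3 group means was most like that of Ephb2 were sought over the 11784 genes whose mean was 1 or more, by the Euclidean distance between log2 means centred on each gene's own average. Fam83a, a scaffold protein, was nearest, at a distance of 0.0869, with 0.462 in untreated liver, 3.22 in Scd2f/f TAL and 0.479 in CC TAL. Ly6d, an anchored surface protein, followed at 0.326, with 1.71, 14.5 and 1.59. Then came Cx3cr1, a chemokine receptor of monocytes and macrophages, at 0.529, the pseudogene Gm12435 at 0.538 and Col1a1 at 0.610. For Ddr1 the nearest genes were Gm43796 at 0.112, Emp1, an epithelial membrane protein, at 0.125, and Cxcl1, a chemokine for neutrophils, at 0.138. Emp1 had 1.47 in untreated liver, 2.71 in Scd2f/f TAL and 0.667 in CC TAL. Gm10252 at 0.174 and Bicc1, an RNA-binding protein, at 0.206 came next. Ephb2 and Ddr1 were 1.57 apart on the same measure. Ephb2 itself had a mean under 1, and Fam83a, Cx3cr1 and Gm12435 passed that minimum only through Scd2f/f TAL, so the filter favours genes that are high in that group. With 3 values a gene, such likeness is a description of these group means.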

How the data were processed

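RNA-seq libraries came from 3 mice in each group. The submitters' processing notes name STAR 2.6.1, Partek 6 and mm10. The authors quantified genes of Gencode M3 with the Partek E/M method, applied upper-quartile normalization and fitted Partek Gene Specific Analysis. The deposited signal is the least-squares mean of each group, with 3 significant digits. Whether it averages logged counts is not given in the sources used here. The table has 18 columns. The Scd2f/f TAL mean appears in 2 of them, which differed for 0 genes, and the first was used. Beside gene annotation and group means, the columns hold the authors' p-values, FDR, ratios and fold changes, which were not used.

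Ratios were computed from the means without a pseudocount, and a ratio of at least 2 in either direction was counted. No test was run, since single mice were not analysed here. The 10 genes and all lists were chosen with earlier results of these data known. Named genes were the 10 genes, Scd2, further Eph, ephrin and Ddr genes, the extremes of each other list over genes whose mean was 1 or more, markers a result turns on, and the 5 genes nearest to Ephb2 and to Ddr1. Adam10, Cdh1 and Cd3e, and genes near Ephb2 and Ddr1, were chosen after their values were seen.

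Of 16128 genes matched by symbol to GENCODE M21 (GRCm38), 99.9752% overlapped that gene, and exon lengths and positions come from it. All 10 genes had promoter sequences in RefSeq GRCm38.p6. The ratio step was tested on simulated data. Alternatives were pseudocounts of 0.1 and 1, centring, a minimum mean of 1 and fold limits of 1.5 and 3. The software was Python 3.11.15, NumPy 2.4.6, pandas 2.3.3 and Matplotlib 3.10.9.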

Additional observations from a re-analysis of the deposited data

How the results depend on the processing

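For Scd2f/f TAL against untreated liver, the 2 genes past 2-fold became 1 with a pseudocount of 0.1 or 1, 0 when the 7 genes whose mean was 1 or more were kept, 5 at a limit of 1.5-fold and 1 at 3-fold. For CC TAL against Scd2f/f TAL, the 2 genes became 1 with a pseudocount of 1 and 1 with that same filter, which leaves out Ephb2 and which Ddr1 passed with a mean of 1.10. Against untreated liver, the 1 gene in CC TAL became 0 with a pseudocount of 1, 2 at a limit of 1.5-fold and 0 at 3-fold. A pseudocount of 1 moved 6 of the 30 log2 ratios of single genes by more than 1.5-fold, all of them toward 0, and a pseudocount of 0.1 or centring moved none of the 30 that far. The median log2 ratios of the 10 genes moved by less than that under each alternative. Leaving out single mice was not run, since only group means were used. The planned use of the second column of the Scd2f/f TAL mean was not run, since it differed from the first for 0 genes. No paired analysis was possible because the columns are group means that carry no replicate numbers. Depth per library is unknown, so the precision of the low means cannot be given.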

Other observations

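Ephb2 lies beside the genes of the first complement component, which were looked at after the values were seen. Within 250 kb of Ephb2, 6 other genes were analysed. C1qb, C1qc and C1qa, which encode the chains of C1q and are known from macrophages, lie 44.1, 53.8 and 59.9 kb from it. C1qa had means of 8.14 in untreated liver, 33.2 in Scd2f/f TAL and 23.1 in CC TAL. These 3 genes were past 2-fold higher in Scd2f/f TAL than in untreated liver, with log2 ratios from 2.03 to 2.24. Among all genes that share was 9.37%. Between the TAL groups their log2 ratios lay between -0.52 and -0.54, and that of Ephb2 was -2.73. On the other side of Ephb2, Kdm1a, a histone demethylase, had 8.48, 8.94 and 8.24 in the same order of groups.

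Of 19 other genes analysed within 250 kb of Ddr1, 4 were past 2-fold higher in Scd2f/f TAL than in untreated liver. Among all genes that share was 9.37%. Only Ier3 of the 19 was past 2-fold lower in CC TAL than in Scd2f/f TAL. Ier3, an immediate early gene 117 kb away, had low means, with 0.399 in untreated liver, 0.901 in Scd2f/f TAL and 0.348 in CC TAL. Of all genes, 4.07% were past 2-fold lower between the TAL groups and 1.82% past 2-fold higher. Among the same 19 genes, Gm8752 and Gm16279 were past 2-fold higher in CC TAL, with log2 ratios of 1.44 and 1.02, and both had low means, at most 0.1 and 0.364 in any group. The nearest neighbour, Gtf2h4, a subunit of a general transcription factor 7.83 kb away, had 4.45, 3.92 and 4.04.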
